A study of Mus musculus with 24 samples.

Results

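The respiratory chain genes were taken as the protein-coding genes of the GENCODE M21 annotation (GRCm38) whose symbols name a mitochondrially encoded subunit (mt-Nd, mt-Co, mt-Cytb and mt-Atp genes), a nuclear subunit or Nduf assembly factor (Ndufa, Ndufb, Ndufc, Ndufs, Ndufv, Cox4 to Cox8, Uqcr and Atp5 genes), or Sdha, Sdhb, Sdhc or Sdhd. 107 annotated genes met this rule and 100 of them were among the 17149 genes of the deposited table. Of the 100, 12 are encoded by mitochondrial DNA and 88 by the nucleus. The nuclear genes comprise 36 of complex I, 8 complex I assembly factors, 4 of complex II, 8 of complex III, 15 of complex IV (with Ndufa4 counted there) and 17 of complex V. The genes mt-Nd3, Cox7a1, Cox7b2, Cox8b, Cox8c and Ndufa4l2, and 1 of 2 entries named Atp5o, were not in the table.

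The respiratory chain passes electrons from NADH (complex I) and succinate (complex II) through complex III to oxygen at complex IV, and complex V uses the proton gradient so formed to make ATP. Complexes I, III, IV and V are built from subunits of both genomes, whereas all subunits of complex II are nuclear. Blood stem cells are known for low reliance on respiration and for raising it as they leave quiescence.

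RNA was measured in bulk populations sorted from mouse bone marrow, in 24 libraries that form 8 groups of 3. The genotypes are the wild type (Tal1 F/F) Rag2GFP, called Ctrl here, and VaviCre Tal1F/F Rag2GFP, called KO, in which Cre expressed in blood cells deletes the floxed Tal1 gene, which encodes a transcription factor of stem and red blood cells. All mice of both genotypes carried the Rag2-GFP reporter, which marks cells that have switched on the lymphoid gene Rag2. Each genotype was sorted as CD135-negative LSK cells, labelled HSC (hematopoietic stem cells), and CD135-positive LSK cells, labelled LMPP (lymphoid-primed multipotent progenitors), each split into GFP-negative and GFP-positive cells. LSK cells lack lineage markers and carry Sca-1 and Kit. The labels give no age. The sample descriptions give the 3 libraries of a group different numbers, each shared by the 4 populations of its genotype, but do not say whether these mark animals. Where they do not, p-values measure only the spread between these libraries, which may be technical. In bulk RNA, fewer cells of a type and less RNA per cell cannot be told apart.

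Values are the authors' normalised counts, which are not whole reads, so depth in reads is unknown. Library totals ran from 6906083 to 11969093 normalised counts. Ctrl HSC GFP-positive replicate 2 (11982 genes above 1 normalised count) and KO LMPP GFP-positive replicate 3 (11684) stood apart from the other libraries, which had 13583 to 15957 such genes. These 2 libraries bear on the members directly: KO LMPP GFP-positive replicate 3 held the highest value of 50 of the 100 genes, and Ctrl HSC GFP-positive replicate 2 the lowest value of 31 and the highest of 16. Replicates 1 (13583 genes) and 3 (14455) of Ctrl HSC GFP-positive had the next fewest genes. Fits without the 2 libraries that stand apart therefore still hold a Ctrl HSC GFP-positive group with few genes. The part of this low gene number in the results for that group was not tested. Tal1 lay between 326 and 2109 in Ctrl libraries and between 0.499 and 518 in KO libraries, and in each of the 4 populations every KO library lay below every Ctrl library. Rag2 was higher in every GFP-positive library than in every GFP-negative library of the same genotype and CD135 gate. The markers of the sort were present in every library: Kit at 2327 to 8066, Ly6a, which encodes Sca-1, at 31.3 to 1703, and Ptprc, which encodes the blood cell marker CD45, at 1309 to 4058 normalised counts. Flt3, which encodes CD135, stood at 177 to 3256 in HSC and 3623 to 8621 in LMPP libraries.

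Several mitochondrially encoded genes have near copies in the nuclear genome, and their sequences are shown because counting has to place reads that fit both. 7 annotated genes on chromosome 1 (GRCm38, chr1:24611535-24616197, minus strand) repeat mt-Nd4, mt-Nd4l, mt-Nd3, mt-Co3, mt-Atp6, mt-Co2 and mt-Co1, in whole or in part. The first 76 bases of mt-Nd3 and its copy Gm28438 differ at 1 base, shown in capitals, while those of mt-Co3 and its copy Gm28437 are identical. The same stretch of mt-Cytb, which has no annotated copy there, is given beside them.
mt-Nd3, chrM:9459-9534, plus strand: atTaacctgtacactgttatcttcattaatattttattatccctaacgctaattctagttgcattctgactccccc
Gm28438, chr1:24613044-24613119, minus strand: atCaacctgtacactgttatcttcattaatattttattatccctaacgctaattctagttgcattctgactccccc
mt-Co3, chrM:8607-8682, plus strand: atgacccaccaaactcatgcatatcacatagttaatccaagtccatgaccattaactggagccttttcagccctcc
Gm28437, chr1:24613896-24613971, minus strand: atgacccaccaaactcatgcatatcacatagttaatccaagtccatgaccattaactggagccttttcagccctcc
mt-Cytb, chrM:14145-14220, plus strand: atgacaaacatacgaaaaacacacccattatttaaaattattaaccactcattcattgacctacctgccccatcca
A stretch of 76 bases has the number of sequencing cycles of the study, so a read from mt-Co3 that begins at its start codon reads the same as one from Gm28437.

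Over their whole aligned length, the copies of mt-Nd4, mt-Nd4l, mt-Co3, mt-Atp6 and mt-Co2 differed from the mitochondrial gene at 0 bases, that of mt-Nd3 at 1 of 345 bases and that of mt-Co1 at 6 of 492. For each gene, the share of its 76-base windows that also occur in another annotated transcript (transcripts only, so that unannotated copies would not be seen) was set beside its level, the mean over the 24 libraries in normalised counts per kilobase of exon. The 8 genes with the smaller shares stood at 4756 to 26678 per kilobase. These were mt-Co1 (26678 per kilobase, 39.4% of windows shared), mt-Atp8 (24796, 0.0%), mt-Cytb (22448, 0.0%), mt-Nd1 (17246, 0.0%), mt-Nd5 (12179, 1.5%), mt-Nd4 (7751, 61.5%), mt-Nd6 (7360, 0.0%) and mt-Nd2 (4756, 5.6%). The other 4 stood at 7.13 to 174 per kilobase: mt-Nd4l (174, 98.6%), mt-Co2 (31.5, 99.5%), mt-Atp6 (28.6, 99.5%) and mt-Co3 (7.13, 99.9%). mt-Nd3, absent from the table, shares 97.8% of its windows. The low levels belong to the genes whose sequence is almost wholly shared with annotated transcripts. The stretch of chromosome 1 between the copies of mt-Atp6 and mt-Co2 was not compared. A copy of mt-Atp8 there would not have been seen, so its 0.0% holds for annotated transcripts only. How the authors' counting treated reads that fit both places is not stated in the labels or notes, and its part in these levels was not tested. The copies themselves were low where listed: Gm10925 (mt-Atp6) at 0.375 to 18.2 and Gm29216 (mt-Co1) at 2.32 to 33.1 normalised counts per library. mt-Nd6 is the only mitochondrially encoded member on the opposite strand, and whether counting used strand is not given, so its reads and those antisense to it cannot be told apart.

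**Figure D1:**
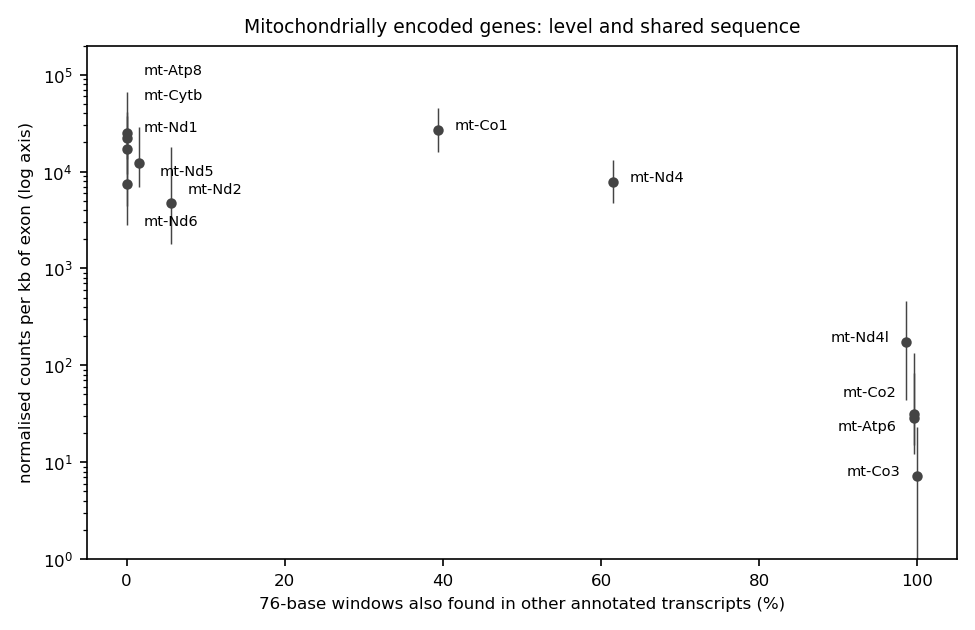
Level of the 12 mitochondrially encoded genes (normalised counts per kilobase of exon, log axis) against the share of their 76-base windows found in other annotated transcripts (%). Points are means of 24 libraries and bars run from the lowest to the highest library (the lowest library of mt-Co3 lies below the axis). The 4 genes at 98.6% or more lie at 7.13 to 174 per kilobase and the other 8 at 4756 or more.

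The nuclear genes lay below the 8 mitochondrial ones with the smaller shared parts on the same scale. Their median level was 165 normalised counts per kilobase, from 2.06 for Cox4i2 to 1737 for Atp5b, the catalytic beta subunit of ATP synthase. Complex IV had the highest median (486 per kilobase), followed by complex II (281), complex V (257), complex III (206) and complex I (145), with the complex I assembly factors lowest (44.0). The highest nuclear gene of each class was Ndufc2 in complex I (460), Ndufaf8 among assembly factors (72.6), Sdhd, a membrane anchor of complex II (447), Uqcr10 in complex III (601), Cox8a in complex IV (1316) and Atp5b in complex V. These levels are compared per length only and their order was not tested.

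Summed over genes, the 12 mitochondrially encoded genes made up 1.11% to 2.05% of the library total and the 88 nuclear genes 0.319% to 0.741%. Of the 12, mt-Nd4l, mt-Co2, mt-Atp6 and mt-Co3, whose sequence is almost wholly shared, averaged only 51.6, 21.5, 19.5 and 5.59 normalised counts. The mitochondrial sum and its ratio to the nuclear sum therefore rest on the other genes and may not be the full mitochondrial output. In Ctrl the mitochondrial sum was 1.36% ± 0.103 (SD, n = 3 here and below) in HSC GFP-negative, 1.80% ± 0.194 in HSC GFP-positive, 1.31% ± 0.117 in LMPP GFP-negative and 1.32% ± 0.186 in LMPP GFP-positive libraries. In KO it was 1.58% ± 0.294, 1.73% ± 0.382, 1.62% ± 0.216 and 1.80% ± 0.311 in the same order. The Ctrl HSC GFP-positive libraries, at 1.59% to 1.96%, lay above all 9 other Ctrl libraries, whereas the KO groups overlapped each other.

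The nuclear sum in Ctrl was 0.501% ± 0.0147, 0.501% ± 0.0908, 0.487% ± 0.0792 and 0.476% ± 0.0206, in the order of groups just used. In KO it was 0.580% ± 0.0819, 0.563% ± 0.0429, 0.400% ± 0.0738 and 0.563% ± 0.154. The KO LMPP GFP-negative libraries (0.319% to 0.463%) lay below every KO HSC library, and without replicate 3 the KO LMPP GFP-positive mean was 0.474%. The log2 ratio of the mitochondrial to the nuclear sum ranged from 0.94 to 2.52 over libraries, with group means from 1.43 in KO HSC GFP-negative to 2.03 in KO LMPP GFP-negative. The 2 mitochondrial ribosomal RNAs alone took 16.9% to 35.9% of the total. The libraries were made from total RNA.

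**Figure D2:**
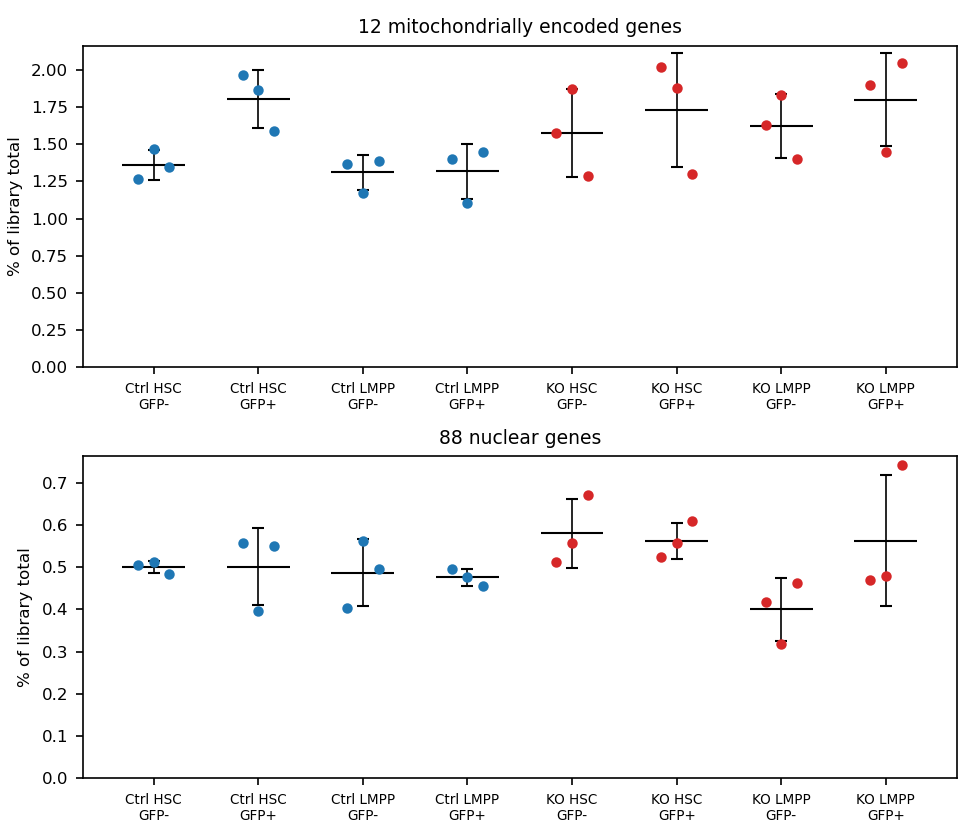
Share of the library total (%) held by the 12 mitochondrially encoded genes (top) and the 88 nuclear genes (bottom) in each group. Points are libraries, horizontal lines are means and bars are SD (n = 3). The Ctrl HSC GFP-positive libraries have mitochondrial shares above the other Ctrl libraries, and the highest nuclear share (0.741%) is KO LMPP GFP-positive replicate 3.

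Differences were tested with limma on log2(value + 4.1), over the 16215 genes with at least 1 ppm (of the library total) in at least 3 libraries. A gene passed at a Benjamini-Hochberg adjusted p under 0.05 over all of those genes, and fold changes on this scale understate those of low genes. 99 members were tested: the 12 mitochondrial and 87 nuclear genes, Cox4i2 falling below the filter. Groups recur across comparisons, so these are not independent of each other.

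No respiratory chain gene passed between KO and Ctrl in any of the 4 populations. In HSC GFP-negative cells 0 of 99 members passed, against 0.16% of all genes; in HSC GFP-positive cells 0, against 0.432%; in LMPP GFP-negative cells 0, against 0.0555%; and in LMPP GFP-positive cells 0, against 0.0432%. Averaged over the 4 populations 0 members passed, against 0.469% of all genes. With shares this small, fewer than 1 call is the background among 99 genes, so the absence of calls is not a result about the members. At an unadjusted p under 0.05 the counts were 1, 17, 1, 15 and 2 members, against 557, 2476, 402, 1251 and 1254 of 16215 genes in the same order.

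The members' medians lay on different sides of 0 in the 4 populations, and the tests of those differences are given with the interaction terms. The median log2 difference, KO minus Ctrl, of the mitochondrial genes was -0.10 in HSC GFP-negative, -0.59 in HSC GFP-positive, 0.37 in LMPP GFP-negative and 0.77 in LMPP GFP-positive cells, beside 0.02, 0.19, -0.01 and -0.10 for all genes. That of the nuclear genes was 0.10, -0.11, -0.16 and 0.45. The mitochondrial genes include the low mt-Nd4l, mt-Co2, mt-Atp6 and mt-Co3. In medians and counts here and below these weigh as much as the others. In HSC GFP-positive cells 0 of 12 mitochondrial genes lay above 0, but 3 of 12 did with values divided by the library total and 2 of 12 under quantile normalisation. The nuclear median there turned from -0.11 to 0.32 with the library total and to 0.22 with the total without the mitochondrial chromosome, scalings that moved the median of all genes from 0.19 to 0.52 and 0.44, so it stayed below that of all genes. In LMPP GFP-positive cells 12 of 12 mitochondrial genes lay above 0 (11 of 12 under quantile normalisation). Both of these comparisons hold a library that stands apart: without the 2 such libraries the mitochondrial medians were -0.39 and 0.38 and the nuclear ones -0.30 and 0.14. Markers of other blood cells differed between the genotypes in the same libraries. The 8 erythroid markers summed to 30.3 to 73.4 ppm in Ctrl and 422 to 553 in KO HSC GFP-negative libraries, and to 5.67 to 44.6 in the other Ctrl and 78.8 to 946 in the other KO libraries. The 6 mast cell markers summed to 22.8 to 53.5 in Ctrl and 276 to 1210 in KO HSC GFP-negative libraries, and to 30.3 to 147 in Ctrl and 205 to 312 in KO HSC GFP-positive ones. In LMPP GFP-negative libraries they summed to 0.0987 to 0.475 in Ctrl and 3.74 to 349 in KO. In LMPP GFP-positive libraries they were instead lower in KO (0.268 to 0.405) than in Ctrl (0.740 to 2.80). The granulocyte and monocyte markers averaged 9334 ppm in Ctrl and 5281 in KO HSC GFP-positive libraries, which overlap. Most of these sums was Mpo, at 73484 and 33637 normalised counts on average. In HSC GFP-negative libraries the granulocyte and monocyte markers summed to 1593 to 3264 in Ctrl and 645 to 827 in KO. In LMPP they summed to 882 to 1276 in Ctrl and 245 to 350 in KO GFP-negative libraries. The LMPP GFP-positive libraries, at 706 to 1544 in Ctrl and 249 to 1048 in KO, overlap. Their part in the members' values was not tested.

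Individual nuclear genes are given for the smallest p-values, none of which passed after adjustment. In HSC GFP-positive cells Atp5j, a peripheral stalk subunit of ATP synthase, averaged 505 in KO and 1284 in Ctrl (log2 difference -1.21, SE 0.34, adjusted p = 0.105). Cox7a2, a small subunit of complex IV, averaged 218 and 555 (log2 difference -1.31, adjusted p = 0.16), and Uqcrc1, a core protein of complex III, 572 and 279 (1.29, adjusted p = 0.211). The Atp5j and Cox7a2 libraries of the 2 genotypes did not overlap. In LMPP GFP-positive cells the smallest p-values belonged to Ndufc1 (696 in KO, 114 in Ctrl), Cox6b2 (183 and 55.4) and Cox6b1 (981 and 264), each with adjusted p = 0.626. Without KO replicate 3, the highest of the 3 KO libraries for each gene, the KO means were 190.5, 136 and 325. In HSC GFP-negative cells the smallest p-values belonged to Cox7a2 (357 in KO, 216 in Ctrl), Ndufaf6 (41.0 and 87.0) and Ndufaf7 (145 and 72.6), each with adjusted p = 0.9999. In LMPP GFP-negative cells they belonged to Ndufaf1 (-1.18), Atp5mpl (-1.01) and Atp5c1 (-0.47), each with adjusted p = 0.9998. Averaged over populations Ndufb3 (0.73), Ndufv3 (0.76) and Ndufa4 (0.30) came nearest, with adjusted p from 0.597 to 0.685.

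A single gene passed for genotype once the 2 libraries that stand apart were left out. Ndufv1, which carries the NADH-binding flavin site of complex I, stood at 258, 270.1 and 224 in KO HSC GFP-positive libraries and at 695, 736 and 507 in Ctrl. The KO libraries lay below all Ctrl ones, including the 1 left out (736). With all libraries the log2 difference was -1.34 (SE 0.56, adjusted p = 0.259). Without those libraries the log2 difference was -1.24 (SE 0.32, adjusted p = 0.0404), when 1.92% of all genes passed.

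Whether the effect of genotype depended on the gate was tested by interaction terms. 0 members passed in the 4 terms: genotype by GFP in HSC (0.00617% of all genes called), genotype by GFP in LMPP (0%), genotype by CD135 gate in GFP-negative cells (0%) and in GFP-positive cells (0.0308%). In the last of these the mitochondrial genes had a median of 1.47, with 12 of 12 above 0 and 9 of 12 at an unadjusted p under 0.05, beside a median of -0.33 and 2030 of 16215 such genes overall. The largest among them were mt-Atp8 (2.85, SE 0.85, adjusted p = 0.249) and mt-Nd2 (2.47, SE 0.60, adjusted p = 0.194). Without the 2 libraries that stand apart, which both belong to this term, the mitochondrial median was 0.83, with mt-Atp8 at 2.11 and mt-Nd2 at 1.63, and 4 of 11 tested genes were at an unadjusted p under 0.05.

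**Figure D3:**
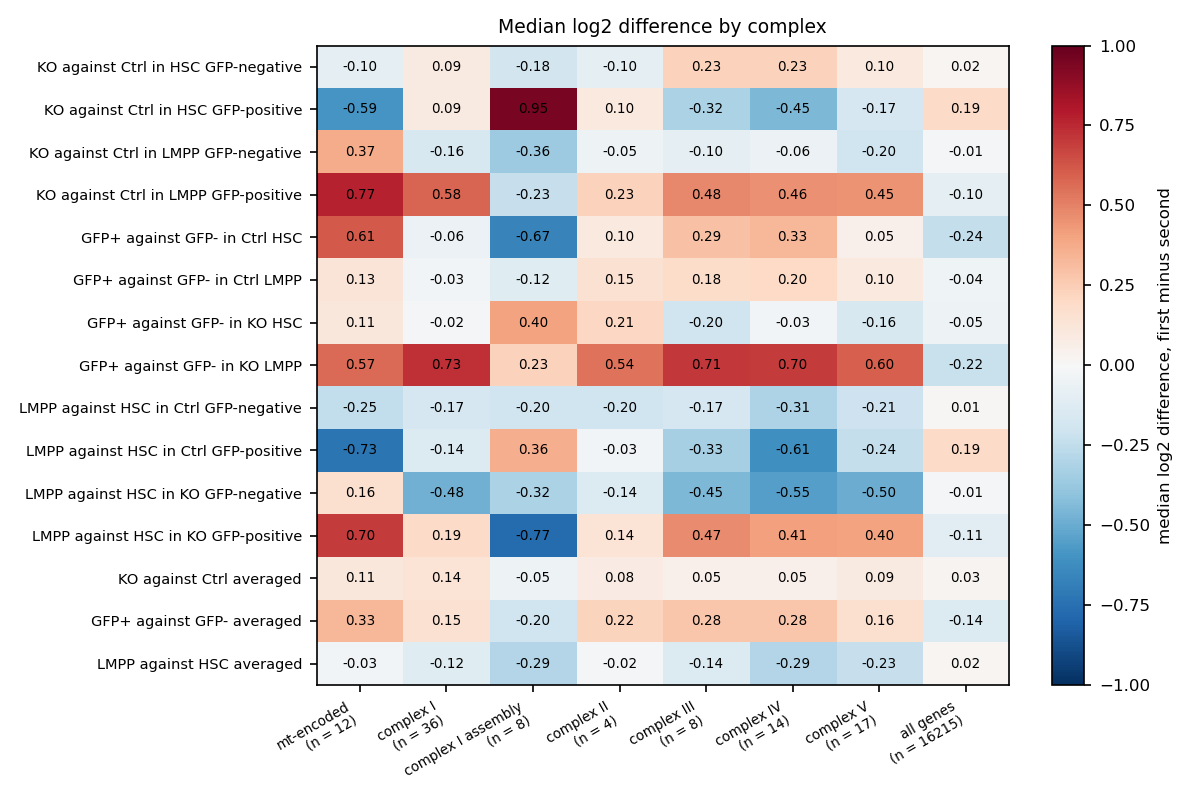
Median log2 difference of the tested members by genome and complex (columns, number of genes in brackets) in the 15 comparisons between groups (rows), with all 16215 genes in the last column. Red is higher in the group named before "against". The mitochondrial column runs from -0.73 in LMPP against HSC of Ctrl GFP-positive cells to 0.77 in KO against Ctrl of LMPP GFP-positive cells, with small values in the averaged rows.

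GFP-positive and GFP-negative cells differed in few members. Within Ctrl HSC, 1 of 99 members passed, against 2.72% of all genes; within Ctrl LMPP 0, against 0.0555%; within KO HSC 0, against 0.376%; and within KO LMPP 1, against 1.15%. Averaged over the 4 pairs of groups 2 members passed, both higher in GFP-positive cells, against 7.23% of all genes. The member share was thus below that of all genes in the average. At an unadjusted p under 0.05 the averaged comparison held 14 members, all higher, beside 3411 of 16215 genes.

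The gene that passed within Ctrl HSC was mt-Co1 (chrM:5328-6872, plus strand), which encodes the catalytic subunit of complex IV. It stood at 32852, 35795 and 31416 normalised counts in GFP-negative and at 59619, 70068 and 48337 in GFP-positive libraries. The groups did not overlap, with a log2 difference of 0.82 (SE 0.22, adjusted p = 0.0478). Without the 2 libraries that stand apart it was 0.69 (adjusted p = 0.131), under quantile normalisation -0.09 (adjusted p = 0.922), and 12 of 17 alternatives did not pass, among them 5 of the 6 that leave out 1 library (adjusted p up to 0.22). In KO HSC the libraries overlapped, at 37595, 51576 and 30404 GFP-negative and 51427, 44301 and 33339 GFP-positive, and the interaction was -0.69 (adjusted p = 0.663), so a difference between genotypes was not shown. The other 11 mitochondrial genes of Ctrl HSC had log2 differences from 0.24 to 0.89, none passing. The summed granulocyte and monocyte markers (9 genes) also differed between these groups, at 1593 to 3264 ppm in Ctrl HSC GFP-negative and 4820 to 13435 in GFP-positive libraries. Most of each sum was Mpo, which averaged 15958 normalised counts in GFP-negative and 73484 in GFP-positive libraries. Ly6g was under 1 normalised count in every GFP-positive library. The part of these markers in the mt-Co1 result was not tested.

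Averaged over the 4 pairs, the mitochondrial genes had log2 differences of 0.19 (mt-Co1) to 0.44 (mt-Nd2), 12 of 12 above 0 (9 of 12 under quantile normalisation), with a median of 0.33, beside 0.16 for the nuclear genes and -0.14 for all genes. The smallest adjusted p among them was 0.0790, for mt-Cytb (29438 GFP-positive, 21924 GFP-negative, log2 difference 0.39, SE 0.13). Without the 2 libraries that stand apart the mitochondrial median was 0.22, with mt-Nd2 at 0.23 and mt-Cytb at 0.28 (adjusted p = 0.223). When values were divided by the library total the medians were 0.17, 0.01 and -0.26, so both stayed above the median of all genes, which this scaling moved by more than 0.1, while the nuclear median itself lay near 0.

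Cox6a2 (chr7:128205435-128206387, minus strand) was the nuclear member that changed most with the reporter. It encodes the heart and skeletal muscle form of complex IV subunit VIa, whose widely expressed counterpart is Cox6a1 (chr5:115345642-115348981, minus strand). In Ctrl HSC it stood at 0.0956, 0 and 0 in GFP-negative and at 23.0, 10.8 and 19.4 in GFP-positive libraries. In Ctrl LMPP it stood at 4.09, 6.16 and 1.80 GFP-negative and at 69.7, 81.9 and 90.4 GFP-positive. The 2 gates did not overlap in either of these pairs. In KO HSC it stood at 0.0531, 0 and 7.66 GFP-negative and at 5.17, 0 and 47.1 GFP-positive, which overlap. In KO LMPP it stood at 0.102, 1.43 and 9.85 GFP-negative and at 177, 126 and 265 GFP-positive, which do not.

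Ordered by mean, KO LMPP GFP-positive (189 normalised counts) came before Ctrl LMPP GFP-positive (80.7), Ctrl HSC GFP-positive (17.7), KO HSC GFP-positive (17.4), Ctrl LMPP GFP-negative (4.02), KO LMPP GFP-negative (3.79), KO HSC GFP-negative (2.57) and Ctrl HSC GFP-negative (0.0319). Only the highest 2 groups lay with every library above the next group, and from the third group down neighbours overlapped. Cox6a2 rose with GFP on average (log2 difference 2.90, SE 0.38, adjusted p = 1.38e-05) and within KO LMPP (4.75, SE 0.75, adjusted p = 0.00126). The gene met the filter only with its GFP-positive libraries counted. Most of its GFP-negative values lay near or below the pseudocount of 4.1, so the size of these differences depends on that setting. Over the alternatives they ran from 1.80 to 4.08 on average and from 3.32 to 6.01 within KO LMPP. Within Ctrl LMPP the difference was 3.41 (SE 0.75, adjusted p = 0.0804), which passed without the 2 libraries that stand apart (adjusted p = 0.0261). Within Ctrl HSC it was 2.36 (adjusted p = 0.0897) and within KO HSC 1.09 (adjusted p = 0.999).

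The same gene rose in LMPP against HSC, on average (1.76, SE 0.38, adjusted p = 0.00483) and within KO GFP-positive cells (3.89, SE 0.75, adjusted p = 0.00842). Between genotypes in LMPP GFP-positive cells the libraries did not overlap, but the difference of 1.13 (SE 0.75, adjusted p = 0.669) did not pass, and the interaction of genotype and CD135 gate in GFP-positive cells was 1.89 (adjusted p = 0.455). Leaving out the 2 libraries that stand apart gave 4.48 for GFP within KO LMPP (adjusted p = 0.00439) and 3.62 for LMPP against HSC within KO GFP-positive cells (adjusted p = 0.0272). The latter did not pass without KO HSC GFP-positive replicate 1 (3.67, adjusted p = 0.0556) or replicate 2 (3.09, adjusted p = 0.129), with the smaller pseudocount (adjusted p = 0.0708) or with only its own 6 libraries (adjusted p = 0.45), and the former did not with only its own libraries (adjusted p = 0.111).

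Cox6a1 did not pass in either averaged comparison. It stood at 311 to 1465 normalised counts over the 24 libraries, with log2 differences of 0.36 (SE 0.17, adjusted p = 0.241) for GFP and -0.32 (SE 0.17, adjusted p = 0.408) for LMPP against HSC. Per kilobase, Cox6a2 reached 278 in KO LMPP GFP-positive libraries beside 1263 for Cox6a1, and 58.0 beside 945 over all libraries. Per kilobase, the muscle form was the lesser of the pair in every group.

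Some genes that mark other blood cells also differed between the gates. Of 10 measured markers of plasmacytoid dendritic cells, a list chosen after values had been seen, 4 passed for GFP on average (7.23% of all genes did), all higher: Irf8 (2.78), Ccr9 (2.06), Ly6d (1.37) and Tcf4 (0.47). The other 6 did not pass: Tlr9 (1.29), Siglech (0.86), Pacsin1 (0.41), Bst2 (0.16), Irf7 (0.11) and Runx2 (-0.13). The summed list was at 908 to 1006 ppm in Ctrl LMPP GFP-positive, 816 to 870 in KO LMPP GFP-positive, and 609 to 884 over the 6 LMPP GFP-negative libraries. In Ctrl HSC it averaged 471 ppm in GFP-negative and 469 in GFP-positive libraries, where Cox6a2 averaged 0.0319 and 17.7 normalised counts. In KO HSC the summed list was at 341 to 496 and 515 to 590.4. The Ctrl HSC sums hide opposite moves of abundant genes. Runx2 averaged 2415 normalised counts in GFP-negative and 1550 in GFP-positive libraries there, and Tcf4 1023 and 1521. Irf8 passed within Ctrl HSC (122 and 574, log2 difference 2.79, adjusted p = 0.0204), when 2.72% of all genes did. Siglech, a defining marker of those cells, stood at 14.99, 30.2 and 5.46 in Ctrl and 22.6, 7.79 and 2.51 in KO LMPP GFP-positive libraries, which overlap, and at 4.31 or less in all others. In LMPP against HSC, 4 of the 10 passed on average, all higher (Runx2, Tcf4, Tlr9 and Ccr9), against 4.18% of all genes. Of 6 measured lymphoid priming genes, a list chosen the same way, 6 rose with GFP on average, but they include Rag2, whose reporter set the gate. The part of either list in the Cox6a2 result was not tested.

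**Figure D4:**
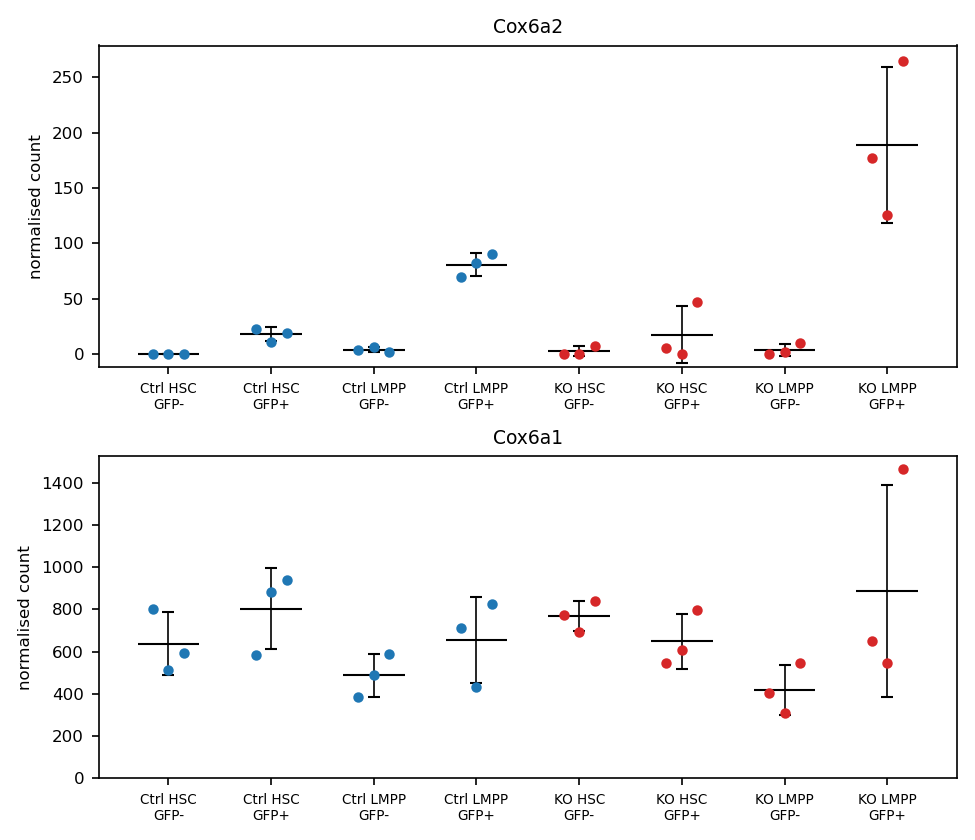
Normalised counts of Cox6a2 (top) and Cox6a1 (bottom) in each group. Points are libraries, horizontal lines are means and bars are SD (n = 3). Cox6a2 lies at 126 to 265 in KO LMPP GFP-positive and 69.7 to 90.4 in Ctrl LMPP GFP-positive libraries and at 47.1 or less in all others, while Cox6a1 is present in every group.

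Cox5a (chr9:57521274-57532426, plus strand), a matrix-side subunit of complex IV, was the other nuclear gene higher in GFP-positive cells on average, at 480 against 232 normalised counts (log2 difference 0.90, SE 0.23, adjusted p = 0.0154). In Ctrl HSC it stood at 322, 200.3 and 235 GFP-negative and 350.2, 941 and 644 GFP-positive, and in KO LMPP at 209.8, 119 and 167 and at 358, 316 and 1118, with no overlap in either pair. In Ctrl LMPP (201, 223 and 253 against 491, 182 and 311) and KO HSC (216, 264 and 380.3 against 462, 301 and 288) the groups overlapped. Both of its highest libraries are those that stand apart, and without them it still passed at 0.67 (SE 0.18, adjusted p = 0.0184). In that fit Ndufa4 (0.42, adjusted p = 0.0216), a subunit bound to complex IV, and the complex I subunit Ndufb7 (0.69, adjusted p = 0.0456) passed too, when 9.28% of all genes passed. Below the threshold in the main comparison the next genes were Ndufv2 (311 and 195, log2 difference 0.59, adjusted p = 0.101) and Ndufb10 (299 and 179, 0.70, adjusted p = 0.125). Within single pairs the nearest others were Atp5j (1.15, adjusted p = 0.0626) and Cox7a2 (1.32, adjusted p = 0.101) in Ctrl HSC, Ndufa6 (0.93) and Atp5j (0.50) in Ctrl LMPP, Cox7a2 (-0.75) and Cox5b (-0.74) in KO HSC, and Cox5a (1.62, adjusted p = 0.0894) and Atp5mpl (2.02, adjusted p = 0.141) in KO LMPP.

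Between the CD135 gates, 3 nuclear members fell and 1 rose in LMPP against HSC on average. Within Ctrl GFP-negative cells 0 of 99 members passed, against 0.37% of all genes; within Ctrl GFP-positive 0, against 0.894%; within KO GFP-negative 0, against 0.876%; and within KO GFP-positive 1 (Cox6a2), against 0.611%. Averaged over the 4 pairs 4 members passed, against 4.18% of all genes, which is near the background share. Apart from Cox6a2 these were Atp5g1, Cox7b and Cox8a, all lower in LMPP. The nuclear genes had a median of -0.17, with 66 of 87 below 0, beside 0.02 for all genes and -0.03 for the mitochondrial genes. By complex the medians were -0.29 for complex IV, -0.29 for the complex I assembly factors, -0.23 for complex V, -0.14 for complex III, -0.12 for complex I and -0.02 for complex II.

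Atp5g1 (chr11:96068852-96075670, minus strand) is 1 of 3 genes for the same c subunit of the ATP synthase ring. Its GFP-negative Ctrl libraries stood at 606, 599 and 603 in HSC and 291, 235 and 446 in LMPP, and its GFP-positive ones at 1242, 649.6 and 729 in HSC and 467, 290.4 and 486 in LMPP. In KO it stood at 443, 531 and 556 in HSC and 236, 219.7 and 385 in LMPP GFP-negative libraries, and at 464, 534 and 501 in HSC and 487, 408 and 412 in LMPP GFP-positive ones. LMPP libraries lay wholly below HSC in the first 3 of these pairs and overlapped in the last. It fell by 0.77 on the log2 scale (364 against 621 on average, SE 0.16, adjusted p = 0.00442) and passed in all 34 alternatives.

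The sister genes did not pass, with Atp5g2 at -0.43 (SE 0.26, adjusted p = 0.464) and Atp5g3 at 0.01 (SE 0.17, adjusted p = 0.993). Of the summed counts of the 3 genes, Atp5g1 held 43.6% ± 6.41 in HSC and 32.5% ± 6.64 in LMPP (SD, n = 12), Atp5g2 18.04% and 18.34%, and Atp5g3 38.4% and 49.2%. The 3 encode the same mature protein. Atp5g3 held a larger part of these counts in LMPP, a difference that was not tested, and 79.8% in KO LMPP GFP-positive replicate 3. The counts were not divided by exon length (4912, 1675 and 2181 bases for Atp5g1, Atp5g2 and Atp5g3), so they are not shares of transcripts. Per kilobase the 3 genes stood at 100, 134 and 257 over all libraries.

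Cox7b (chrX:106015700-106022450, plus strand) and Cox8a (chr19:7215153-7217616, minus strand) encode small membrane subunits of complex IV. Cox7b stood at 679, 501 and 647 against 404, 435 and 406 in Ctrl GFP-negative HSC and LMPP, and at 1165, 491 and 762 against 698, 377 and 417 in Ctrl GFP-positive ones. In KO it stood at 689, 701 and 759 against 482, 367 and 430.1 GFP-negative and at 719.7, 675 and 748 against 622, 584 and 391 GFP-positive. All pairs but Ctrl GFP-positive were free of overlap, and the average fell by 0.60 (468 against 711, SE 0.15, adjusted p = 0.022). Cox8a averaged 655 in LMPP and 974 in HSC and fell by 0.58 (SE 0.16, adjusted p = 0.0289), without overlap in both KO pairs and with overlap in both Ctrl pairs. Cox8a did not pass in 12 of 34 alternatives, with adjusted p up to 0.091, and Cox7b not in 2, those with values divided by the library total (adjusted p = 0.0605) and by the total without the mitochondrial chromosome (adjusted p = 0.0754).

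**Figure D5:**
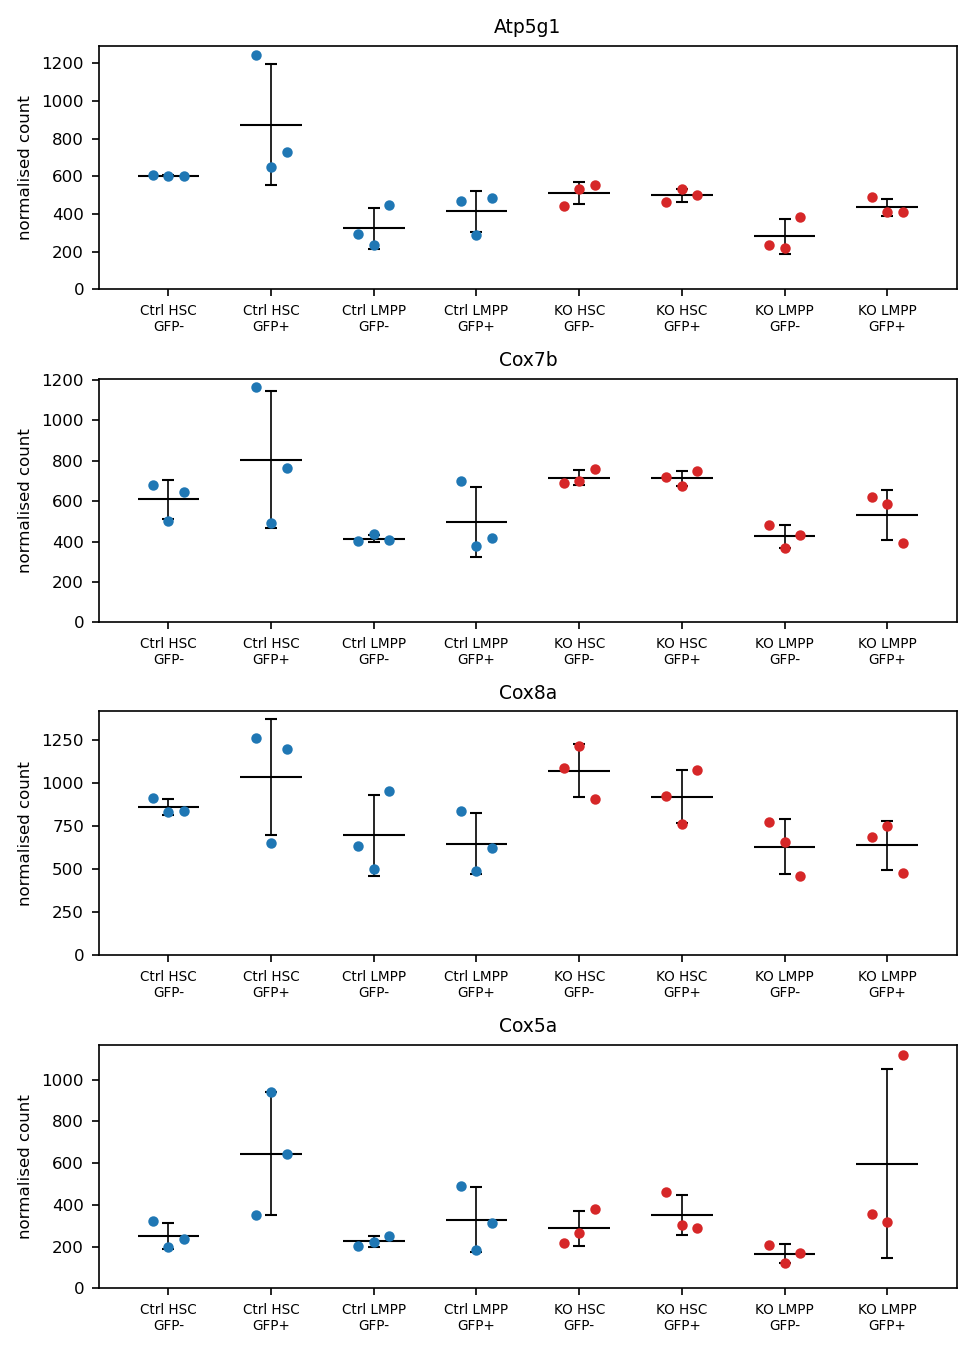
Normalised counts of Atp5g1, Cox7b, Cox8a and Cox5a in each group. Points are libraries, horizontal lines are means and bars are SD (n = 3). The first 3 genes are lower in LMPP (averages 364, 468 and 655) than in HSC (621, 711 and 974), and Cox5a is higher in GFP-positive cells (480 against 232), with its highest libraries in Ctrl HSC GFP-positive (941) and KO LMPP GFP-positive (1118).

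The upstream sequences of Atp5g1, Cox7b and Cox8a, each lower in LMPP on average, are shown to let their motifs be compared. The number of members that passed there was near the background share, so these genes are not taken as a group regulated together. The sequences cover 250 to 51 bases before the RefSeq start (GRCm38.p6), with CCAAT or its reverse complement ATTGG in capitals.
Atp5g1, chr11:96075682-96075881, minus strand: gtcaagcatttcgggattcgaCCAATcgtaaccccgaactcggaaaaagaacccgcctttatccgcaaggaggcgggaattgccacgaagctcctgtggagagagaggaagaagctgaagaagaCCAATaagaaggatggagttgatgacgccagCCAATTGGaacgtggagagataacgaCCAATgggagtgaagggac
Cox7b, chrX:106015450-106015649, plus strand: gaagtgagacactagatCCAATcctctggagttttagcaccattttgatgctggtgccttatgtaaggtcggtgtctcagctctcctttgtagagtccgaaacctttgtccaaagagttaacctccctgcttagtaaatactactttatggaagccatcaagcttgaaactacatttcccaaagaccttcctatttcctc
Cox8a, chr19:7217667-7217866, minus strand: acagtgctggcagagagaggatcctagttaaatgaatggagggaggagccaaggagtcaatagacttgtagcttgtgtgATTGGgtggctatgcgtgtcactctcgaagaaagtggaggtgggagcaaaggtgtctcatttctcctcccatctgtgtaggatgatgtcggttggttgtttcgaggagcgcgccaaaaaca
CCAAT was found 5 times in the window of Atp5g1, 2 of them overlapping, and 1 time each in those of Cox7b and Cox8a. Of the 71 members with a RefSeq window (76 windows), 25 held it, or 34.2% of their windows, beside 28.4% of all 32851 windows of the same length. Among 3 other motifs searched on both strands, CCGGAA, the core of ETS factor sites, was in 15.8% of member windows and 8.0% of all, GCGCATGC, a core of nuclear respiratory factor 1 sites, in 6.6% and 1.4%, and the E-box CANNTG, the site type of TAL1 and its partners, in 56.6% and 59.0%. A match is a description of letters and was not tested.

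The count of genes lower in LMPP depended on the 2 libraries that stand apart. Without them 16 of 98 members passed on average, 15 of them lower, when 8.49% of all genes passed, and 81 of 87 nuclear genes lay below 0 with a median of -0.29. The added genes were, in complex I, Ndufa1 (-1.09), Ndufb6 (-0.87), Ndufb7 (-0.70), Ndufb2 (-0.69), Ndufc2 (-0.68), Ndufab1 (-0.47), Ndufb9 (-0.44) and mt-Nd1 (-0.41), in complex III Uqcr11 (-0.77) and in complex V Atp5e (-0.77), Atp5l (-0.75) and Atp5mpl (-0.75). Among them mt-Nd1 encodes the ND1 core subunit, Ndufab1 an acyl carrier protein and Atp5e the epsilon subunit of the central stalk of ATP synthase. Atp5g1 (-0.80), Cox7b (-0.63) and Cox8a (-0.61) passed there too. Within Ctrl GFP-positive cells 7 members passed in that fit, all lower in LMPP: Atp5l (-1.79), Ndufb2 (-1.57), Cox6b1 (-1.55), Ndufa7 (-1.47), Atp5e (-1.44), Atp5g1 (-1.23) and Cox7b (-0.97), when 3.57% of all genes passed. Within KO GFP-negative cells Atp5mpl (-1.44, adjusted p = 0.0196) passed, when 2.85% of all genes did.

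Marker lists of other cells also differed between the gates. The 9 granulocyte and monocyte markers summed to 645 to 13435 ppm over HSC and 245 to 1544 over LMPP libraries, and the 4 megakaryocyte markers to 79.7 to 195 in HSC GFP-negative libraries and to 27.6 or less in all others (Gp1bb was under 1 normalised count in every library of the 4 LMPP groups and of Ctrl HSC GFP-positive). Their part in the lower values was not tested.

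Within single pairs of gates, the members with the smallest p-values did not pass, apart from Cox6a2. They were Atp5g1 (-0.94, adjusted p = 0.511), Cox6b2 (-1.56) and Ndufs6 (-0.98) in Ctrl GFP-negative cells, Atp5g1 (-1.04, adjusted p = 0.11), Cox6b2 (-2.45, adjusted p = 0.153) and Atp5l (-1.23, adjusted p = 0.174) in Ctrl GFP-positive cells, and Atp5g1 (-0.89, adjusted p = 0.301), Cox6a1 (-0.90, adjusted p = 0.375) and Cox8a (-0.78, adjusted p = 0.399) in KO GFP-negative cells. In KO GFP-positive cells, besides Cox6a2, they were Ndufaf2 (-1.57) and Atp5g3 (0.86), with adjusted p = 0.35 and 0.352.

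The 4 genes of complex II did not pass in any of the 15 comparisons. Of all genes 0.0432% to 7.23% passed in these, so the absence of calls among 4 genes is not a result about them. Sdha, the flavoprotein that oxidises succinate, ran from 1195 to 1968 normalised counts over the 24 libraries with a median of 1726, and its averaged differences were 0.08 for genotype, 0.11 for GFP and -0.04 for LMPP against HSC (SE 0.12 each). Sdhb, the iron-sulfur subunit, ran from 131 to 1084 with a median of 258, its highest value being KO LMPP GFP-positive replicate 3. Sdhc and Sdhd, the membrane anchors, ran from 358 to 1159 (median 459) and from 149 to 829 (median 569), with the highest Sdhc and the lowest Sdhd in Ctrl HSC GFP-positive replicate 2. Of their 12 averaged differences the largest in size was 0.61 for Sdhb with GFP (SE 0.24, adjusted p = 0.132).

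Among genes with tissue-restricted forms, the widespread form was the higher per kilobase in each pair measured. Cox4i1 stood at 517 and Cox4i2, the lung form, at 2.06, with 0 to 12.7 normalised counts over the libraries. Cox6b1 stood at 642 and the testis form Cox6b2 at 154, the latter from 4.56 to 860 normalised counts, highest in Ctrl HSC GFP-positive replicate 2 and with log2 differences of -1.14 for LMPP against HSC (SE 0.42, adjusted p = 0.15), -0.17 for GFP and 0.42 for genotype. Cox7a2 stood at 313, its relative Cox7a2l, which ties complexes III and IV together, at 785, and Ndufa4 at 610. None of Cox4i1, Cox6b1, Cox6b2, Cox7a2, Cox7a2l and Ndufa4 passed in the 3 averaged comparisons.

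The mitochondrial transcripts of 1 library differed in make-up from the rest. The ratio of mt-Nd6 to mt-Co1 per kilobase was 1.88 in KO LMPP GFP-positive replicate 3 and 0.144 to 0.418 in the other 23 libraries, and that of mt-Nd2 to mt-Co1 was 0.899 there and 0.0838 to 0.256 in the others. mt-Nd6 (chrM:13552-14070, minus strand) stood at 19616 in that library and at 3616 and 3984 in the other two of its group. The medians and counts over the mitochondrial genes given above include both genes in this library. Without mt-Nd2 and mt-Nd6, the median was 0.70 in place of 0.77 for KO against Ctrl in LMPP GFP-positive cells, 1.26 in place of 1.47 for the interaction of genotype and CD135 gate in GFP-positive cells and 0.31 in place of 0.33 for GFP on average, with 10 of 10 genes above 0 in each. These medians still hold that library, which was also the highest of the 24 for mt-Nd1, mt-Nd4l, mt-Nd5, mt-Co2, mt-Co3, mt-Atp6 and mt-Atp8. Leaving out the 2 libraries that stand apart gave 0.38, 0.83 and 0.22 in the same order.

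Genes of related pathways were mostly without calls as well. Between genotypes, averaged over populations, 0 genes passed in 10 related lists, namely electron carriers (14 genes), complex III and IV assembly (26), other assembly factors (14), mitochondrial transcription and RNA factors (25), regulators of respiration (11), TCA cycle (18), glycolysis (21), inner membrane carriers and protective enzymes (18), mitochondrial ribosomal RNA (2) and mitochondrial ribosomal proteins (76 tested). Of all genes 0.469% passed there. At that share few calls would fall in these lists, so their absence is not a result about the lists. With GFP, when 7.23% of all genes passed, 1 of 18 TCA cycle genes rose (Fh1, fumarate hydratase, 0.68, adjusted p = 0.0153), as did 1 of 18 carriers (Slc25a5, an ADP/ATP exchanger, 0.54, adjusted p = 0.00714). Of 21 glycolysis genes, Gapdh rose (0.49, adjusted p = 0.0145), while the glucose transporter gene Slc2a3 (-1.26, adjusted p = 0.0171) and the aldolase gene Aldoc (-1.53, adjusted p = 0.0359) fell, the last of which did not pass without the 2 libraries that stand apart (-1.20, adjusted p = 0.0722). In LMPP against HSC, when 4.18% of all genes passed, Etfb, a subunit of the electron transfer flavoprotein (-0.61, adjusted p = 0.0157), and Ldha, lactate dehydrogenase A (-0.64, adjusted p = 0.0191), fell, and the 76 mitochondrial ribosomal protein genes had a median of -0.19 with 0 calls.

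Within single pairs, Sdhaf4, an assembly factor of complex II, stood at 3.56, 0.0314 and 3.48 normalised counts in Ctrl HSC GFP-positive libraries. It stood at 64.2, 34.2 and 54.1 in KO HSC GFP-positive, 26.1, 45.8 and 89.8 in Ctrl HSC GFP-negative and 45.7, 40.05 and 128 in Ctrl LMPP GFP-positive libraries, none of which overlap the first group. It averaged 50.8 in KO and 2.36 in Ctrl HSC GFP-positive cells (log2 difference 3.10, SE 0.68, adjusted p = 0.0371), when 0.432% of all genes passed. It was also lower in Ctrl HSC GFP-positive than GFP-negative cells (-3.07, adjusted p = 0.0129) and higher in Ctrl LMPP than HSC GFP-positive cells (3.41, adjusted p = 0.0129), comparisons that share the Ctrl HSC GFP-positive group. Of all genes 2.72% passed in the first of these, which is also the comparison of Uqcc1 and Mrpl55 below, and 0.894% in the second. Uqcc1, an assembly factor of complex III, stood at 235, 208 and 209.6 in Ctrl HSC GFP-negative and at 119, 7.58 and 32.2 in GFP-positive libraries (-2.57, adjusted p = 0.0144). The ribosomal protein gene Mrpl55 stood at 66.9, 76.1 and 249 and at 36.1, 1.11 and 14.7 in the same groups (-2.84, adjusted p = 0.0376). All 3 genes were lowest in replicate 2, the GFP-positive library that stands apart. Without the 2 such libraries Sdhaf4 passed in all 3 comparisons (2.81, -2.77 and 3.12, with adjusted p = 0.022, 0.0135 and 0.0077) and Uqcc1 in its own (-1.73, adjusted p = 0.0222), whereas Mrpl55 did not (-2.04, adjusted p = 0.062).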

How the data were processed

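RNA-seq libraries were made by the authors from total RNA and sequenced for 76 cycles, per the labels' protocols. Trimmomatic 0.33, HTSeq 0.6.1, edgeR and mm10 are named in the submitters' processing notes, while the aligner, annotation and strand setting are not stated there. Values deposited by the authors are a normalised signal, the authors' normalised counts, and 0.59% of its values above 0 came within 0.001 of an integer, so reads could not be recovered and no count model was used. The function that made them is not given.

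Columns were matched to samples by title. Gene identifiers were matched to GENCODE M21, which held 16978 of the 17149. limma 3.58.1 in R 4.3.3 was fitted to log2(value + 4.1), a pseudocount of 0.5 ppm of the mean library total, with 8 group means over all 24 libraries and an intensity trend. It was also run on simulated data with independent normal noise and no libraries that stand apart, which does not check it for such libraries. Genes under 1 ppm in more than 21 libraries were left out. Adjusted p-values are Benjamini-Hochberg over all genes tested. Shares are percent of the library total. Named were all mitochondrial genes, nuclear genes that passed, the highest of each complex, complex II, tissue forms with counterparts, up to 3 with the smallest p where fewer than 5 passed, and passing genes of related lists. Sequences came from GENCODE transcripts and RefSeq promoters (GRCm38.p6). The members and lists were chosen with earlier results of these data known. Alternatives varied pseudocount, filter, scaling, libraries, weights and replicate block.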

Additional observations from a re-analysis of the deposited data

How the results depend on the processing

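The counts of members that passed (limma) stayed within 1.5 times in 174 of 202 alternatives. A count of 0 that stayed 0 was taken as within this limit. The main count was 0 in all comparisons between genotypes, all interaction terms and several single pairs, so the 174 say little about stability. The 28 alternatives outside the limit follow. Between KO and Ctrl in HSC GFP-positive cells, 1 member passed without the 2 libraries with the fewest genes, and 0 to 2 when single libraries were left out (2 without Ctrl HSC GFP-positive replicate 3). For GFP in Ctrl HSC, 2 passed with the smaller pseudocount and 0 with the larger one, with values divided by the library total or by the total without the mitochondrial chromosome, without those 2 libraries, with array weights and with only its own libraries, and 0 to 7 when single libraries were left out (7 without Ctrl HSC GFP-positive replicate 3). For GFP in Ctrl LMPP, 1 passed with the larger pseudocount, quantile normalisation, without the 2 libraries, with array weights and with only its own libraries. For GFP in KO LMPP, 5 passed with array weights, 0 with only its own libraries, and 1 to 3 when single libraries were left out (2 and 3 without KO LMPP GFP-positive replicates 1 and 2). For LMPP against HSC in Ctrl GFP-positive cells, 1 passed with the smaller pseudocount, 7 without the 2 libraries, and 0 to 5 when single libraries were left out (5 without Ctrl HSC GFP-positive replicate 3). In KO GFP-negative cells, 1 passed without the 2 libraries, 8 with array weights and 3 with only its own libraries. In KO GFP-positive cells, 0 passed with the smaller pseudocount or only its own libraries, and 0 to 2 when single libraries were left out (0 without KO HSC GFP-positive replicate 1 or 2). For GFP averaged over pairs, 4 passed without the 2 libraries and 2 to 4 when single libraries were left out (4 without Ctrl HSC GFP-positive replicate 2 or 3). For LMPP against HSC averaged over pairs, 2 passed with the total without the mitochondrial chromosome, 16 without the 2 libraries, 12 with array weights, and 3 to 6 when single libraries were left out. mt-Co1 for GFP in Ctrl HSC reversed to -0.09 under quantile normalisation. The cause was not tested in any of these cases. The deviations of same-numbered libraries correlated at -0.01 to 0.12 between genotypes and -0.03 to 0.20 within a genotype, where no comparison had every pair over 0.1, so they were not treated as paired. Within a genotype, 22 of 24 libraries still correlated best with the library of their own number (8 of 12 between genotypes), a hint from the data, and the labels do not say what the number marks. With the replicate number, or the number in the sample description, as a replicate block, 2 members passed for LMPP against HSC in Ctrl GFP-positive cells, and the other counts stayed within the limit. Depth in reads is unknown, which leaves the precision of low genes such as Cox6a2 below a few normalised counts unmeasured. The nuclear median for KO against Ctrl averaged over populations was 0.09, and -0.05 without the 2 libraries and -0.06 with array weights.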
